A study of Mus musculus with 13 samples.

Results

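The hypoxia-inducible factors (HIFs) and their direct regulators were followed at the RNA level in mouse regulatory T (Treg) cells and in Treg "wannabes", cells that transcribe a Foxp3 reporter-null allele without making Foxp3 protein. The 8 members were chosen by symbol, out of 24417 genes counted: the oxygen-regulated subunits Hif1a and Epas1, their shared partner Arnt, the ubiquitin ligase component Vhl, the prolyl hydroxylases Egln1, Egln2 and Egln3, and the asparaginyl hydroxylase Hif1an. Hif1a and Epas1 were set against each other because their changes in these libraries were already known to differ, so their values are given as a description, without a test. The other 6 members were tested.

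The libraries were bulk RNA-seq of sorted C57BL/6 cells from pooled spleen and lymph node, in 2 experiments. In the first, males received 4-hydroxytamoxifen on postnatal day 14 and were analyzed 7 days later, at day 21. It comprised 3 control Treg libraries (Foxp3DTR-GFP/yCd4creERT2), 3 rescued Treg libraries (Foxp3LSL/yCd4creERT2, in which the recombinase removes a STOP cassette and restores Foxp3 in mice that had already developed autoimmune disease) and 2 male Treg wannabe libraries (Foxp3LSL/yCd4wt, with no recombinase). The study reports that disease progressed in treated males of this last genotype. Control Treg cells and male wannabes thus differ in disease, Foxp3 allele and recombinase together. In the second, females were given diphtheria toxin from an age of 8 to 10 weeks, 7, 5, 3 and 1 days before analysis at 9 to 11 weeks. It comprised 3 resting wannabe libraries (Foxp3LSL/WTCd4wt, whose wild-type Treg cells are insensitive to the toxin) and 2 activated wannabe libraries (Foxp3LSL/DTRCd4wt, whose Treg cells are removed by it). The female libraries each came from 1 mouse by the study's methods, which call the male ones biological replicates without counting mice. The recombinase in the rescued and control males is expressed from Cd4 and so is not limited to Treg cells, the control cells carry a receptor-reporter allele of Foxp3, and no control Treg library came from an inflamed mouse. Sex, age and agent differ between the experiments and cannot be told apart from them.

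HIF-1 and HIF-2 are pairs of an oxygen-regulated α subunit, encoded by Hif1a or Epas1, with the stable subunit encoded by Arnt. In oxygenated cells the Egln enzymes hydroxylate the α subunits on prolines, the Vhl protein then marks them for destruction, and Hif1an blocks their coactivator contact by hydroxylating an asparagine. Much of this control acts on protein, which RNA does not measure. In T cells HIF-1 is known for driving glycolysis and for its part in the balance between type 17 helper and Treg cells, while HIF-2 is best known from endothelial and kidney interstitial cells.

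The libraries held between 25556783 and 36659638 counted reads. Foxp3 RNA, the check of the alleles, had a normalized count of 6934 ± 1397 (SD, n = 3) in control Treg cells, 31534 ± 4279 (SD, n = 3) in the rescued cells and 3018 ± 362 (SD, n = 2) in male wannabes, where it is transcribed from the null allele. Thy1, part of the reporter by which wannabes were sorted, was at 8573 ± 3032 (SD, n = 2) in male wannabes against 1447 ± 89.7 (SD, n = 3) in control and 1303 ± 107 (SD, n = 3) in rescued Treg cells. A list of 10 T cell markers summed to between 5387 and 8067 CPM (counts scaled to the library total) in every library. Because Epas1 marks endothelial cells, 12 endothelial markers were read too: the list summed to 263 to 318 CPM in control Treg cells, where Epas1 was lowest, and to 147 to 191 CPM in rescued Treg cells, 177 to 187 CPM in male wannabes, 145 to 199 CPM in resting wannabes and 143 to 154 CPM in activated wannabes. Nearly all of it was Pecam1, also made by T cells, at a mean of 281 CPM in control Treg cells and 147 to 180 CPM in the other groups. The other 11 summed to 1.49 to 4.55 CPM in control Treg cells, 1.42 to 2.92 in rescued Treg cells, 1.91 to 2.76 in male wannabes, 1.14 to 1.65 in resting and 1.40 to 1.50 in activated wannabes, so these sums overlapped in every comparison. By group means, 3 of the 11 were higher and 5 lower in rescued than in control Treg cells, 6 higher and 4 lower in control Treg cells than in male wannabes, and 4 higher and 3 lower in activated than in resting wannabes. Cldn5 was at 0 in every group. Other lists, low throughout, moved with Epas1 in some comparisons. The 12 monocyte, macrophage and dendritic cell markers summed to 1.96 to 5.82 CPM in resting and 8.10 to 12.7 in activated wannabes, without overlap, and to 5.02 to 11.97 in control Treg cells, 6.30 to 13.8 in rescued Treg cells and 3.40 to 6.39 in male wannabes. Itgam, the most abundant of them, made up most of the control sum, at a mean of 8.11 CPM against 3.14 in rescued Treg cells and 0.467 in male wannabes. Without it, the other 11 summed to 0.363 to 1.60 CPM in control Treg cells, 4.70 to 7.86 in rescued Treg cells, 3.31 to 5.54 in male wannabes, 1.60 to 4.44 in resting and 6.76 to 9.34 in activated wannabes, lowest, as for Epas1, in the control and resting groups. The 8 fibroblast and stromal markers summed to 0.925 to 1.24 CPM in control Treg cells, 3.57 to 6.46 in rescued Treg cells, 3.38 to 17.4 in male wannabes, 0.911 to 2.96 in resting and 3.08 to 3.96 in activated wannabes. Without Col1a1, the most abundant, the group means of the other 7 went both ways. In rescued against control Treg cells 3 were higher and 3 lower. Control Treg cells had 4 higher and 2 lower than male wannabes, and activated wannabes 4 higher and 2 lower than resting ones. The 5 NK cell markers, with Klra4 and Klra8 at 0 in every group, summed to 0.638 to 1.42 CPM in control Treg cells, 3.38 to 8.26 in rescued Treg cells, 4.99 to 8.36 in male wannabes, 2.78 to 5.47 in resting and 3.50 to 5.77 in activated wannabes. The 11 granulocyte and mast cell markers summed to 0.463 to 4.24 CPM in control Treg cells, 1.09 to 1.66 in rescued Treg cells, 2.25 to 3.20 in male wannabes, 2.28 to 4.70 in resting and 1.46 to 2.14 in activated wannabes. Without Cpa3, the most abundant, the other 10 summed, in the same order, to 0.0296 to 0.580, 0.0783 to 0.421, 1.60 to 2.32, 0.143 to 0.981 and 0.191 to 0.574 CPM. The part of such cells in the Epas1 values was not tested. In bulk libraries, fewer cells with a transcript and less transcript per cell cannot be told apart.

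Normalized counts are counts scaled to a common library size within each experiment, so they compare libraries and not genes, and were normalized separately in the experiments. RPKM values, the reads per kilobase of exon scaled to library size, compare genes. Hif1a (GRCm38 chr12:73901375-73947530, plus strand) and Epas1 (chr17:86753700-86833410, plus strand) have similar exon lengths of 5896 and 5590 bases in the annotation. Hif1a shares 330 exonic bases with an antisense gene, Gm15283, that is not among the counted genes, and 148 with Gm49321 on its own strand, and the strand setting of the counting is not given in the sources used here.

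The promoters of Hif1a and of Egln3, the regulator that changed between the Treg populations, are shown for their hypoxia response element cores. Capitals mark ACGTG or GCGTG on either strand, CACGTG holding ACGTG on both. Each is the 250 bases before the RefSeq start on GRCm38.p6, at chr12:73907617-73907866 (plus strand) for Hif1a and chr12:54203875-54204124 (minus strand) for Egln3.
Hif1a: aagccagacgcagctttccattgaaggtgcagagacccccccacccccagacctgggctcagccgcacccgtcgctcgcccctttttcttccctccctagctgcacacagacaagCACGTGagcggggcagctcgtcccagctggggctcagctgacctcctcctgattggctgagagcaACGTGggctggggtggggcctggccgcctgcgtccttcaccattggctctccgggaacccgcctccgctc
Egln3: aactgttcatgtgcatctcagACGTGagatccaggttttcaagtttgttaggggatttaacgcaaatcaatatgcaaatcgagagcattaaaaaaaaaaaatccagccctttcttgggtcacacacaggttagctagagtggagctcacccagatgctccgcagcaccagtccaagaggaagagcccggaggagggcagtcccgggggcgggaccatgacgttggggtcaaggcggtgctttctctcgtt
The Hif1a window held 3 ACGTG matches and the Egln3 window 1. Of 32851 mouse promoter windows of this length, 38.6% held either core, so a match is common. Of the 8 members, 7 had a promoter in the table, and 5 of these 7 genes had a match.

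Hif1a was the most abundant of the 8 members in 4 of the 5 populations. Its normalized counts were 11435, 9554 and 10502 in the control Treg libraries and 18653, 20113 and 18996 in the rescued Treg libraries. The male wannabe libraries held 3033 and 2226. These 3 groups did not overlap, with rescued Treg cells highest and male wannabes lowest. In the females the counts were 27234, 27069.6 and 23433 in resting and 25371 and 27431 in activated wannabes, which overlapped. The log2 fold change was 0.88 (SE 0.15) for rescued against control Treg cells, a ratio of means of 1.83, and 0.027 (SE 0.092) for activated against resting wannabes. Against male wannabes it was 2.00 (SE 0.18) for control and 2.87 (SE 0.19) for rescued Treg cells.

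Epas1 ran over a far wider range and in another order. The control Treg libraries held normalized counts of 36.5, 8.21 and 14.2, from 34, 9 and 15 reads. The rescued Treg libraries held 1361.5, 789 and 1355. The male wannabes were highest, at 4302 and 5769. Resting wannabes were at 74.7, 238 and 106 and activated wannabes at 2926 and 2797. No 2 groups within an experiment overlapped, and in each the cells of healthy mice were lowest. The log2 fold change was 5.92 (SE 0.47) for rescued against control Treg cells, a ratio of means of 59.6, and 4.35 (SE 0.43) for activated against resting wannabes, a ratio of 20.5. Against male wannabes, Epas1 was lower in control (-8.03, SE 0.51) and in rescued Treg cells (-2.11, SE 0.39). The size rested on single libraries: without control library 1, the highest of its group, the change was 6.70 (SE 0.44) for rescued against control Treg cells and -8.80 (SE 0.48) for control Treg cells against male wannabes, and without resting library 2 that of activated against resting wannabes was 4.98 (SE 0.18). The comparisons of the males share libraries.

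**Figure D1:**
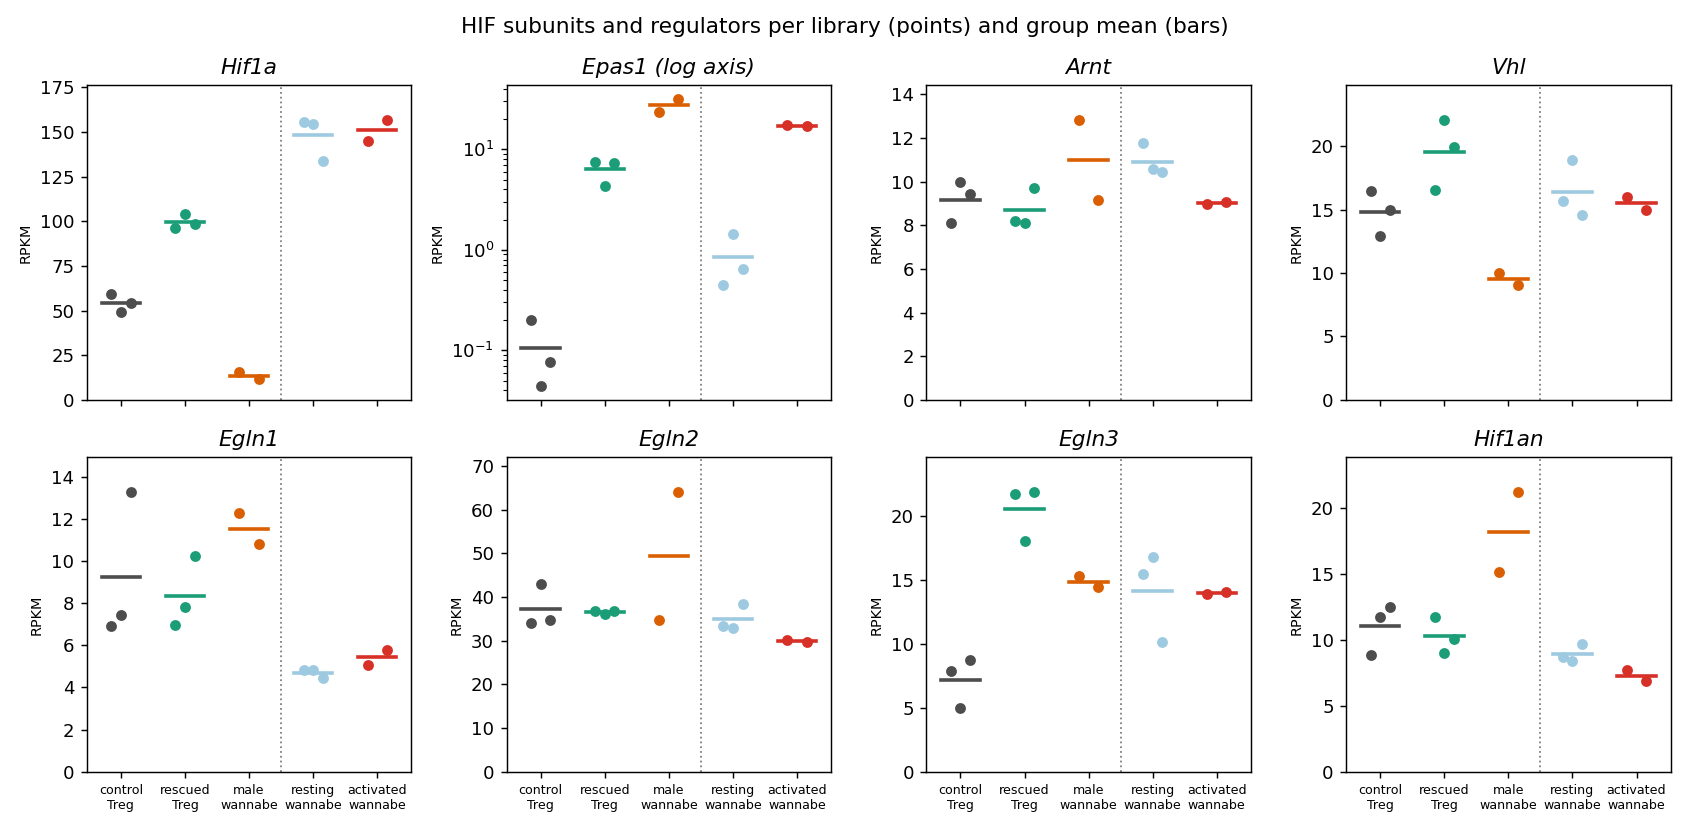
Reads per kilobase of exon scaled to library size (RPKM, y axis; a log axis for Epas1 and linear axes from 0 for the others) of the 8 members in the 5 populations, with a point for each library and a bar for the group mean; the dotted line separates the experiments. Hif1a was lowest in male wannabes (13.6 RPKM on average), where Epas1 was highest (27.5 RPKM).

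The ratio of Epas1 to Hif1a reads within a library does not depend on normalization. Per kilobase of exon, its log2 value was -9.26 ± 0.96 (SD, n = 3) in control Treg cells, -4.01 ± 0.51 (SD, n = 3) in the rescued cells and 1.02 ± 0.61 (SD, n = 2) in male wannabes. It was -7.63 ± 0.84 (SD, n = 3) in resting and -3.13 ± 0.13 (SD, n = 2) in activated wannabes. Epas1 thus made up 0.0905% to 0.335% of the reads per kilobase of both genes in control Treg cells, 3.97% to 7.15% in rescued Treg cells and 59.9% to 73.2% in male wannabes. In the females the share was 0.288% to 0.921% in resting and 9.71% to 10.8% in activated wannabes. Epas1 exceeded Hif1a in the 2 male wannabe libraries and in none of the other 11. In the activated wannabes Epas1 lay above the resting level and Hif1a overlapped it, whereas in the male wannabes Hif1a was also the lowest of its experiment.

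**Figure D2:**
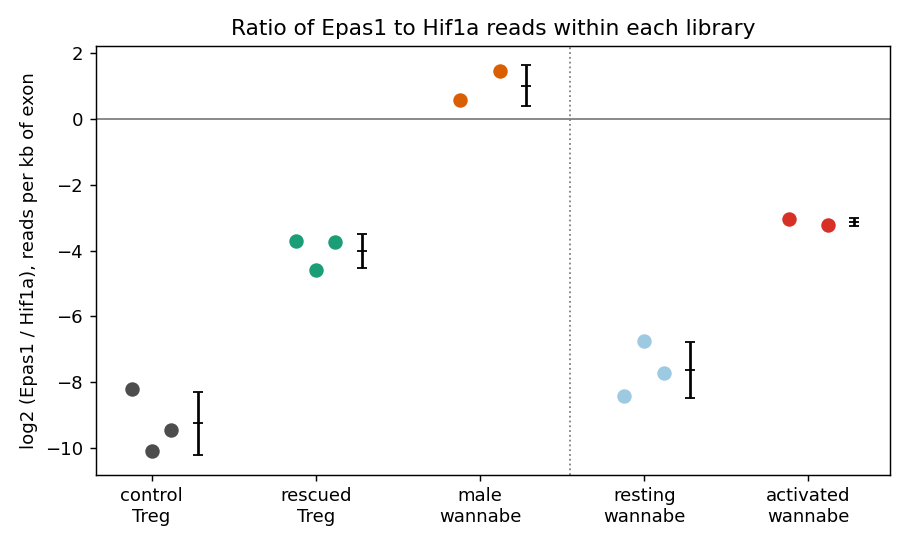
Log2 ratio of Epas1 to Hif1a reads per kilobase of exon (y axis) in each of the 13 libraries by population; black bars show the mean ± SD and the dotted line separates the experiments. The 2 male wannabe libraries sit above 0, at 0.58 and 1.45, and the control Treg libraries lie lowest, between -10.11 and -8.22.

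Base composition moved with each of the 4 comparisons, over the widest span for control Treg cells against male wannabes. The longest Hif1a transcript is 41.3% G and C, in the lowest of 5 equal classes of genes by GC content, and that of Epas1 is 52.5%. For control Treg cells against male wannabes the median log2 fold change was 0.38 in the lowest GC class and -0.072 in the highest. It was lowest, at -0.13, in class 4 of the 5, which holds Epas1. For rescued Treg cells against male wannabes it was 0.18 in the lowest class, -0.15 in class 4 and -0.048 in the highest. For rescued against control Treg cells it ran the other way, from -0.12 in the lowest class to 0.10 in the highest. For activated against resting wannabes it went from -0.072 to 0.050. By length, the median for control Treg cells against male wannabes was 0.39 in the longest of 5 length classes and -0.11 in the shortest. With each library's trend with GC content and length removed, the Hif1a change was 1.54 (SE 0.12) for control and 2.51 for rescued Treg cells against male wannabes, and 0.97 (SE 0.10) for rescued against control. The Epas1 changes were then -8.07 (SE 0.48) for control Treg cells against male wannabes and 5.88 (SE 0.44) for rescued against control Treg cells.

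The genes whose profiles over the 13 libraries were closest to that of Hif1a, by the root mean square (RMS) difference of log2 CPM centred within each experiment, were Tmem30a (0.17), Ndfip1 (0.18), Cox11 (0.23), Eri1 (0.25) and Eid1 (0.26), out of 10240 genes compared. Tmem30a encodes a subunit of lipid flippases and Ndfip1 an adaptor of Nedd4-family ubiquitin ligases. Tmem30a, Ndfip1 and Eri1 lie, like Hif1a, in the lowest GC class, with 39.2%, 43.1% and 43.2%, whereas Eid1 (45.6%) and Cox11 (49.8%) lie above it. The profile of Epas1 was itself wider (RMS 3.04 around its mean, against 0.89 for Hif1a), which raises such distances, and its closest genes were Il4 (1.15), Pdlim4 (1.20), Lgals7 (1.50), Gzma (1.51) and Pik3ap1 (1.62). Il4 encodes the type 2 helper cytokine interleukin-4 and Gzma the protease granzyme A. These are descriptions of 13 libraries that share their population structure.

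Arnt, the partner of both α subunits, passed no threshold with edgeR. Its normalized counts were 2133, 2623 and 2472 in control and 2156, 2127 and 2555 in rescued Treg cells, and 3369 and 2402 in male wannabes. It was at 2793, 2513 and 2479 in resting and 2136 and 2154 in activated wannabes. The groups of males overlapped and those of females did not. The log2 fold change was -0.080 (SE 0.19) for rescued against control Treg cells. For activated against resting wannabes it was -0.27 (SE 0.090, adjusted p = 0.0719 by edgeR's quasi-likelihood test), which DESeq2 called.

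Egln3, a prolyl hydroxylase gene that is itself a hypoxia target, was the 1 regulator of 6 called between the Treg populations, where 2.3% of the 14925 genes tested were called. Its normalized counts were 686, 435 and 761 in control and 1897, 1571 and 1909 in rescued Treg cells, without overlap. The log2 fold change was 1.52 (SE 0.24, adjusted p = 0.0108 by edgeR's quasi-likelihood test), and the call held without each library in turn (adjusted p from 0.00775 to 0.0474). In male wannabes Egln3 was at 1334 and 1258, between both Treg groups. Control Treg cells were lower than male wannabes by this test (log2 fold change -1.05, SE 0.26, adjusted p = 0.0205), a call that was lost without control library 2 (adjusted p = 0.0583) or male wannabe library 1 (0.0587). For rescued Treg cells against male wannabes the change was 0.47 (SE 0.27, adjusted p = 0.286).

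In the females Egln3 was at 1221, 1325 and 799 in resting and at 1097 and 1111 in activated wannabes, which overlapped, with a log2 fold change of -0.014 (SE 0.21). The difference between this change and that of rescued against control Treg cells was 1.54 (SE 0.35, adjusted p = 0.0457 by edgeR's quasi-likelihood test over the 13 libraries), in a test that called 1.53% of 15201 genes. Of 13 fits that each left out 1 library, 4 kept this call. It was lost without activated library 1 or 2, control library 1 or 2, any rescued library, or resting library 1 or 2, with adjusted p up to 0.233. Of the summed RPKM of the 3 Egln genes, Egln3 held 13.5% ± 3.9 (SD, n = 3) in control Treg cells, 31.3% ± 2.1 (SD, n = 3) in the rescued cells and 20.3% ± 5.9 (SD, n = 2) in male wannabes. In the wannabes of females it held 26.2% ± 6.2 (SD, n = 3) and 28.3% ± 0.027 (SD, n = 2).

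Egln1 and Egln2, the other prolyl hydroxylases, passed no threshold in the main comparisons. Egln1, regarded as the main oxygen sensor, was at 817, 877 and 1565 in control Treg cells, 818, 924 and 1207 in rescued Treg cells and 1446 and 1272 in male wannabes. Its female counts were 513, 516 and 476 in resting and 539.6 and 618 in activated wannabes, with a log2 fold change of 0.21 (SE 0.13, adjusted p = 0.299 by edgeR). Egln2 was the most abundant of the 3, at 30.0 to 49.4 RPKM in the group means. Its 2 male wannabe libraries differed widely, at 3195 and 5886, and overlapped the control Treg values of 3135, 3954 and 3193, while the rescued values of 3377, 3319 and 3376 lay between them. Without male wannabe library 1, Egln2 was called lower in control (-0.79, adjusted p = 0.0229 by edgeR) and in rescued Treg cells (-0.81, adjusted p = 0.0213) than in the remaining male wannabe. With the trends with GC content and length removed it was called lower as well (-0.58 and -0.87).

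Vhl, the substrate receptor that recognizes hydroxylated α subunits, had its lowest counts in male wannabes, at 985 and 895. Control Treg cells held 1618, 1272 and 1476 and rescued Treg cells 1627, 2172 and 1960.4, so the male wannabes lay below every Treg library. The change for rescued against control Treg cells was 0.40 (SE 0.20, adjusted p = 0.348 by edgeR), without overlap. Vhl was higher in rescued Treg cells than in male wannabes (log2 fold change 1.03, SE 0.23, adjusted p = 0.0114 by edgeR's quasi-likelihood test), a call lost without male wannabe library 2 (adjusted p = 0.0630). For control Treg cells the change was 0.63 (SE 0.22, adjusted p = 0.0779 by edgeR), which DESeq2 called (adjusted p = 0.0469). In the females Vhl overlapped between resting (1398, 1683 and 1301) and activated wannabes (1426 and 1335).

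Hif1an, the asparaginyl hydroxylase, ran the other way. Male wannabes were highest, at 3279 and 4595, above control Treg cells at 1921, 2533 and 2713 and rescued Treg cells at 2546, 1952 and 2172. It was called lower in control (-0.72, SE 0.22, adjusted p = 0.0484 by edgeR) and in rescued Treg cells (-0.82, SE 0.22, adjusted p = 0.0304). The first call was lost in 7 of 8 fits that left out 1 library and held only without male wannabe library 1; the second was lost without male wannabe library 2 or rescued library 2 or 3 (adjusted p up to 0.157). In the females Hif1an was at 1699.8, 1652 and 1894 in resting and 1511 and 1341 in activated wannabes (log2 fold change -0.29, SE 0.11, adjusted p = 0.0963). Between the Treg populations it overlapped.

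By comparison, 2 of the 6 regulators were called for control Treg cells against male wannabes, Egln3 and Hif1an, where 16.2% of all genes were called. For rescued Treg cells against male wannabes 2 were called, Vhl and Hif1an, against 14.1%. For activated against resting wannabes edgeR called 0 of 6 while calling 22.5% of 13166 genes. There, 2 of the 6 regulators, Arnt and Hif1an, had an unadjusted p under 0.05 in edgeR, as did 5016 of the 13166 genes. DESeq2 called 1 regulator. Of the 6 regulators, 2 did not overlap between rescued and control Treg cells, against 24.2% of all genes, 3 between control Treg cells and male wannabes (46.1%), 4 between rescued Treg cells and male wannabes (42.7%) and 4 between activated and resting wannabes (56.5%).

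**Figure D3:**
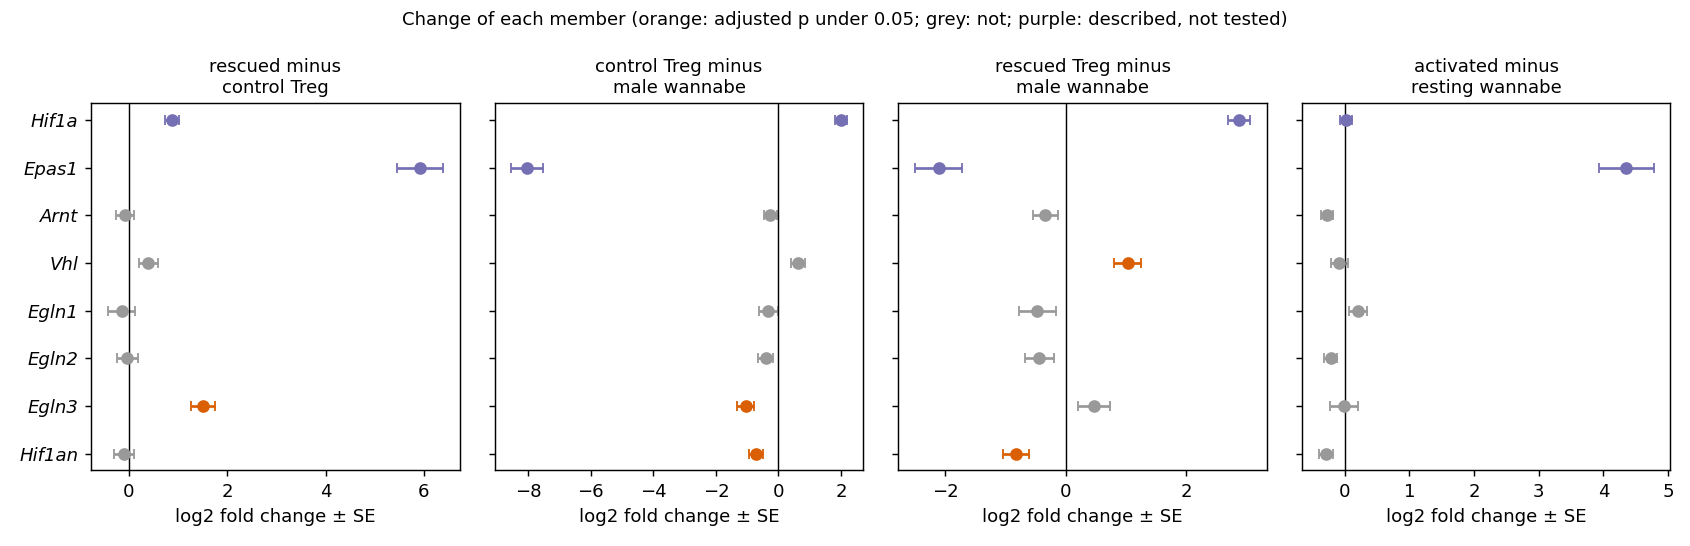
Log2 fold change with its SE (x axis, a scale of its own in each panel) of the 8 members in 4 comparisons; orange marks an adjusted p under 0.05, grey a higher one, and purple Hif1a and Epas1, which were not tested. Epas1 had the largest change of the members in 3 of the panels, and Hif1a in that of rescued Treg cells against male wannabes.

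Per length, Hif1a led in control Treg cells at 54.3 ± 4.86 RPKM (SD, n = 3), followed by Egln2 at 37.3 ± 4.97. Vhl and Hif1an came next, at 14.8 ± 1.77 and 11.0 ± 1.91, Egln1, Arnt and Egln3 overlapped their neighbours between 7.18 and 9.21 RPKM, and Epas1 was last at 0.107 ± 0.081. In rescued Treg cells Hif1a was at 99.5 ± 3.95 RPKM (SD, n = 3), Egln2 at 36.5 ± 0.36, and Egln3 (20.5 ± 2.2) overlapped Vhl (19.5 ± 2.79). Epas1 was again last there but overlapped Egln1, at 6.37 ± 1.79 RPKM. In male wannabes Egln2 and then Epas1 lay above every library of the other members, and below them each neighbour in the order Hif1an, Egln3, Hif1a, Egln1, Arnt and Vhl overlapped the next. Hif1a, at 13.6 ± 2.95 RPKM there (SD, n = 2), overlapped Hif1an, Egln3, Egln1 and Arnt. In resting wannabes Hif1a reached 148 ± 12.3 RPKM (SD, n = 3) with Epas1 last at 0.842 ± 0.524. In activated wannabes Hif1a was at 151 ± 8.32 and Epas1 came after Egln2, at 17.2 ± 0.549 RPKM (SD, n = 2), above every Vhl library.

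The genes around the factors were read from 5 lists. The bHLH-PAS relatives of the HIFs included 2 that rose in rescued against control Treg cells, of 15 tested, where 2.3% of all genes were called. Arnt2, a paralog of Arnt that can also pair with α subunits, went from 132 ± 55.3 to 1001 ± 264 normalized counts (SD, n = 3 each; log2 fold change 2.92, adjusted p = 0.0102 by edgeR). Ahr, the aryl hydrocarbon receptor, which shares the partner Arnt, went from 718 ± 141 to 1678 ± 566 (1.22, adjusted p = 0.0391 by edgeR). The Ahr call was lost without any 1 of the 6 Treg libraries (adjusted p up to 0.173 by edgeR) and that of Arnt2 without control library 1 (0.0519). Arnt2 was also called lower in control Treg cells than in male wannabes (725 ± 492, SD, n = 2), a call lost without male wannabe library 2. Ahr was called higher in rescued Treg cells than in male wannabes (827 ± 11.5, SD, n = 2), which held only without rescued library 2 or 3. In each of these comparisons 13.3% of the list was called, against 16.2% and 14.1% of all genes. Arntl, a clock factor, was higher in control and rescued Treg cells than in male wannabes (1.34 and 1.06, adjusted p = 0.00418 and 0.0126 by edgeR) and fell in activated wannabes (-1.02, adjusted p = 0.00136). Its call for rescued Treg cells was lost without male wannabe library 1 (adjusted p = 0.0674).

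The 22 glucose metabolism targets of hypoxia, transporters and glycolytic enzymes long linked to HIF-1, were all tested in each comparison. In activated against resting wannabes 16 rose and 1 fell, where 22.5% of all genes were called, with a list median of 0.54 against -0.0073 over all genes. Without activated library 1 or 2, the genes of the list that rose were 7 and 5 and none fell, where 5.52% and 5.84% of all genes were called. Slc16a3, the lactate exporter, went from 401 ± 13 (SD, n = 3) to 1230.1 ± 19.5 normalized counts (SD, n = 2; log2 fold change 1.62, adjusted p = 0.000465 by edgeR). Hk2, a hexokinase, rose by 1.81 (adjusted p = 0.0232), the aldolase Aldoc by 1.42 (0.00551) and Tpi1 by 1.26 (0.00216), whereas Pfkfb4, which sets fructose bisphosphate levels, fell by 1.10 (0.0416). The calls of Hk2 and Aldoc were lost without activated library 1 or 2 (adjusted p up to 0.161 and 0.0591 by edgeR), and that of Pfkfb4 in 4 of 5 fits that left out 1 library, all but that without resting library 2 (up to 0.230). Hif1a RNA was 1.02 times the resting level there.

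In rescued against control Treg cells 2 of the 22 rose and none fell, where 2.3% of all genes were called. They were Aldoa (0.64, adjusted p = 0.0295 by edgeR) and Pkm (0.47, adjusted p = 0.0407). Both calls were lost without any 1 of the 6 Treg libraries (adjusted p up to 0.135 for Aldoa and 0.178 for Pkm). An unadjusted p under 0.05 was reached by 11 of the 22, and by 2403 of the 14925 genes tested. The list median was 0.34 against -0.025 over all genes, and 17 of the 22 log2 fold changes lay above 0. Pkm, pyruvate kinase, was no longer called with the trends with GC content and length removed or without a filter on low counts. In control Treg cells against male wannabes 12 were lower and 2 higher (list median -0.59 against 0.089), where 16.2% of all genes were called. The 14 calls became 7 without control library 1 and 9 without control library 2 or 3 or male wannabe library 2. Aldoa, an aldolase, was at 36400 ± 3760 normalized counts in male wannabes (SD, n = 2) and at 15812 ± 703 in control Treg cells (SD, n = 3; -1.20, adjusted p = 0.000725 by edgeR). Tpi1, Slc16a3 and Pgk1 were lower by -1.18, -1.06 and -1.04. Pdk1, which keeps pyruvate from mitochondria, and the glucose transporter Slc2a3 went the other way (1.30 and 0.96). The call of Slc16a3 was lost without any 1 control or male wannabe library (adjusted p up to 0.0832 by edgeR) and that of Slc2a3 without control library 1 or male wannabe library 1 (up to 0.0841). For rescued Treg cells against male wannabes, where 14.1% of all genes were called, 3 were lower, Eno1, Aldoa and Pkm, and 2 higher, Pdk1 (1.99, adjusted p = 0.000528) and Slc2a3 (1.47, adjusted p = 0.00197). Eno1 was no longer called without rescued library 2, Aldoa without rescued library 1 or 2 or male wannabe library 2, and Pkm in 7 of 8 fits that left out 1 library, all but that without male wannabe library 2. Among the males, Pdk1 and Slc2a3 had, like Hif1a, their lowest counts in the wannabes.

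**Figure D4:**
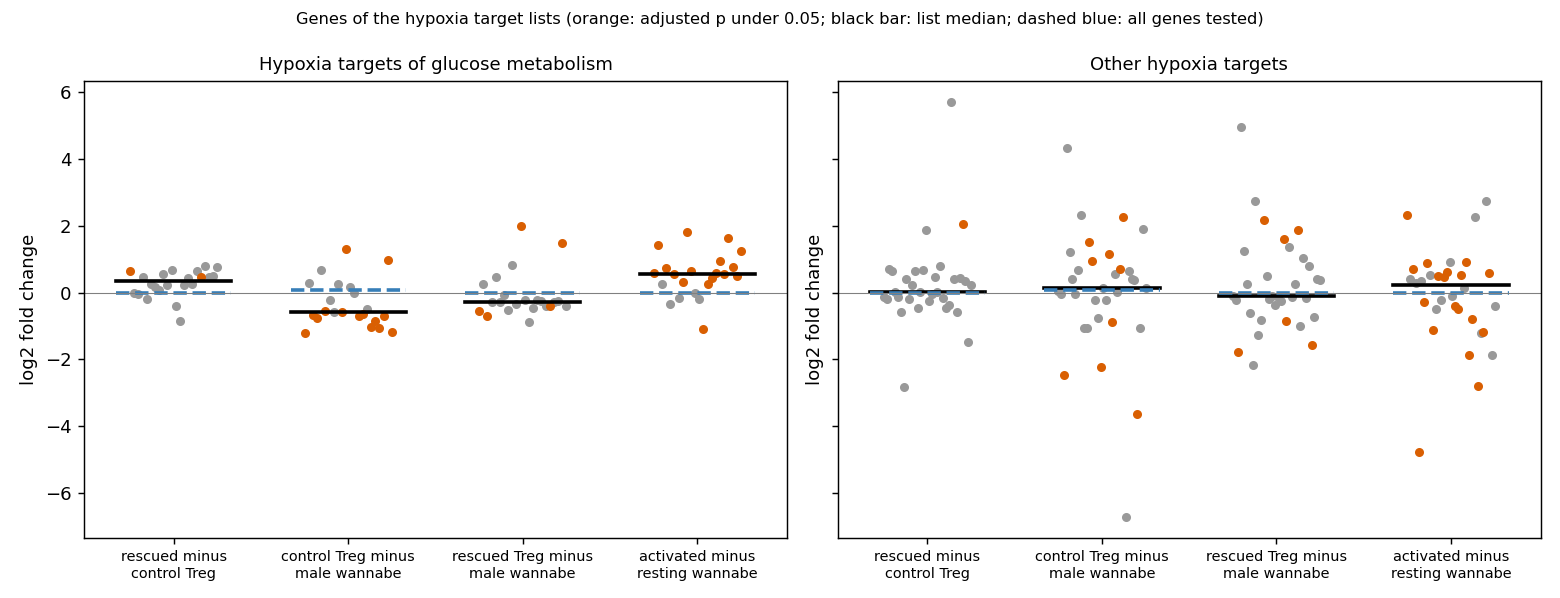
Log2 fold change (y axis) of each gene of the glucose metabolism list and of the other hypoxia targets in 4 comparisons (x axis); orange points passed an adjusted p under 0.05, the black bar is the list median and the dashed line the median over all genes tested. In activated against resting wannabes 16 of the 22 glucose metabolism genes were called higher, and 7 and 5 without activated library 1 and 2; in control Treg cells against male wannabes 12 were called lower, and 6 without control library 1.

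Of the other hypoxia targets, 32 were tested in each comparison. In rescued against control Treg cells 1 was called, Stc2, a secreted stanniocalcin (58.8 ± 18.1 to 247 ± 99.7 normalized counts, SD, n = 3 each; log2 fold change 2.06, adjusted p = 0.0231 by edgeR), against 2.3% of all genes. This call was lost without any 1 control library or rescued library 2 (adjusted p up to 0.115). In control Treg cells against male wannabes 5 were higher and 4 lower, where 16.2% of all genes were called. The collagen prolyl hydroxylase gene P4ha1 (2.25, adjusted p = 0.000277) and the oxidase gene Ero1l (1.51, adjusted p = 0.0034) were higher, and Stc2 (-3.63, adjusted p = 0.000789) and the repressor gene Bhlhe40 (-2.48, adjusted p = 0.00016) lower. In rescued Treg cells against male wannabes 3 were higher and 3 lower, 18.8% of the list against 14.1% of all genes. Among them were the same 4 genes in the same directions (P4ha1 1.86, Ero1l 2.16, Stc2 -1.57 and Bhlhe40 -1.76), with shared wannabe libraries. The call of Stc2 was lost without male wannabe library 2 or rescued library 1 or 3. In activated against resting wannabes 9 rose and 9 fell, where 22.5% of all genes were called. These 18 calls became 2 without activated library 1, 3 without activated library 2 and 11 without resting library 3. Among them Ndrg1 and the carbonic anhydrase Car12 rose by 0.90 each, calls lost without activated library 1 or 2, while the lipid droplet gene Plin2 fell by 2.81 (adjusted p = 0.000249 by edgeR) and Nt5e, which encodes the ectonucleotidase CD73, fell by 1.86 (adjusted p = 0.000566).

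Of the 8 genes tested that are described as HIF-2 targets in other tissues, edgeR called 0 in rescued against control Treg cells, where it called 2.3% of all genes. DESeq2 called 0 of them. An unadjusted p under 0.05 in edgeR was reached by 0 of them, and by 2403 of the 14925 genes tested. Slc11a2, an iron transporter, was the 1 gene of the list called lower in control Treg cells than in male wannabes (-0.96, adjusted p = 0.0241 by edgeR), 12.5% of the list against 16.2% of all genes. It was also the 1 called in activated against resting wannabes, where it fell (-0.48, adjusted p = 0.0112 by edgeR), 16.7% against 22.5%. By edgeR, no share of the list lay above that of all genes in these comparisons. DESeq2 called 2 of the 8 for control Treg cells against male wannabes, and shares of so few genes are coarse. Epas1 was higher in male wannabes than in control Treg cells and in activated than in resting wannabes, so Slc11a2 went with it in the first comparison and against it in the second. The first call was lost without any 1 control library or male wannabe library 2 (adjusted p up to 0.178) and the second without activated library 1 or 2 (up to 0.104). Of 10 listed, 6 passed the filter on low counts in the females.

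Of 17 genes of HIF protein turnover and coactivation, edgeR called 0 between the Treg populations, where it called 2.3% of all genes, and DESeq2 called 0. An unadjusted p under 0.05 in edgeR was reached by 3 of them, and by 2403 of the 14925 genes tested. In activated against resting wannabes 5 of the 17 were called, 29.4% of the list against 22.5% of all genes. Of these 1 rose, the ubiquitin ligase Siah1b (0.86, adjusted p = 0.0477 by edgeR), and 4 fell. Those were Cited4 (-3.10, adjusted p = 0.00629), the chaperones Hsp90ab1 (-0.89) and Hsp90aa1 (-0.55), and the coactivator Crebbp (-0.42). The calls of Siah1b and Crebbp held only without resting library 2, of 5 fits that each left out 1 library, those of Cited4 and Hsp90aa1 were lost without activated library 1 or 2, and that of Hsp90ab1 without activated library 1. Rack1, which promotes oxygen-independent HIF-1α degradation and is also a ribosomal protein, was lower in control (-0.65, adjusted p = 0.0136 by edgeR) and in rescued Treg cells (-0.68, adjusted p = 0.0112) than in male wannabes, the former call lost without control library 3 (0.0515). Cited2 was called higher in rescued Treg cells (696 ± 466 normalized counts, SD, n = 3) than in male wannabes (210 ± 29.4, SD, n = 2). Of 8 fits that each left out 1 library, only that without rescued library 2 kept this call. The list's calls made up 5.88% for control and 11.8% for rescued Treg cells against male wannabes, where 16.2% and 14.1% of all genes were called. Over the 5 lists together 27 of 94 genes (28.7%, against 16.2% of all genes) were called for control Treg cells against male wannabes. For rescued Treg cells against male wannabes 15 of 94 (16%, against 14.1%) were called. For rescued against control Treg cells 5 of 94 (5.32%, against 2.3%) were called. That last count fell to between 0 and 2 without each Treg library in turn and rose without either male wannabe library. For activated against resting wannabes 43 of 89 (48.3%, against 22.5%) were called, and 11 and 10 without activated library 1 and 2.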

How the data were processed

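The 13 libraries were RNA-seq of sorted cells (SMART-Seq v4 amplification). The authors aligned reads to GRCm38 with STAR 2.7.3a, applied local realignment in GATK and counted reads on genes in R; the deposited values are counts, not normalized, and the annotation and strand setting are not given in the sources used here. Table columns carry the reporter or allele and a number, and were matched to populations through the genotypes and the sort gates of the methods. The design text gives the numbers of activated and resting replicates the other way round; the sample labels were followed. Entries with no gene name (4 of 24421, at most 0.00841% of counts) were left out. Members and gene lists were chosen with earlier results of these data known.

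Counts were tested in R 4.3.3 with edgeR 4.0.16 (TMM, filterByExpr, quasi-likelihood F test, Benjamini-Hochberg adjustment over all genes tested, adjusted p under 0.05). A single fit held the 8 male libraries, another the 5 female ones, and the difference of changes was fitted over all 13. Replicates, numbered by title, are single mice in the females and biological replicates in the males, per the methods, and differed by more than counting noise (chi-square per degree of freedom 13.8 to 152). RPKM used exon lengths of GENCODE M21 on GRCm38 (23609 genes matched by symbol). Reads carry no molecular identifiers, so precision from depth covers counting error only; 3 counts are at most 1.17e-05 percent of a library. Males had a common biological coefficient of variation of 0.510 and females of 0.171.

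All 8 members are named. From each list and comparison, up to 4 called genes with the largest rise and 4 with the largest fall could be named, if their normalized counts averaged over 100. Scripts were tested on simulated counts. In the comparisons with male libraries the simulated spread was smaller than the estimated one, so recovery at the real spread was not tested. Alternatives were DESeq2 1.42.0, no filter, a filter at 100 mean normalized counts, size factors of DESeq2 in edgeR, a replicate block, only the 2 populations compared, leaving out each library and, chosen after seeing the data, offsets for GC content and length.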

Additional observations from a re-analysis of the deposited data

Results flagged for a closer look

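For 4 genes the change of rescued against control Treg cells differed from that of activated against resting wannabes in edgeR's quasi-likelihood test over the 13 libraries, which called 1.53% of 15201 genes. Egln3 differed by 1.54 on the log2 scale (SE 0.35, adjusted p = 0.0457), with 1.52 in the Treg cells and -0.014 in the wannabes. Arnt2 differed by 4.22 (SE 0.91, adjusted p = 0.0370), with 2.92 and -1.28. Nt5e differed by 1.42 (SE 0.18, adjusted p = 0.00201), with -0.46 and -1.86. Plin2 differed by 3.22 (SE 0.54, adjusted p = 0.0121), with 0.39 and -2.81. Of 13 fits that each left out 1 library, Nt5e was called in 13 (adjusted p up to 0.0232), Plin2 in 11, lost without activated library 1 or 2 (up to 0.0816), Egln3 in 4 (up to 0.233) and Arnt2 in 3 (up to 0.210). Arnt2 held only without either male wannabe library or resting library 3. Sex, age, agent and allele differ between the experiments and cannot be told apart.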

How the results depend on the processing

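For rescued against control Treg cells, the 343 genes called became 1092 with DESeq2, 612 without a filter, 580 with only the 2 populations compared and 544 with GC and length offsets; the 5 genes of the lists became 13, 8, 8 and 9, and 10 with a mean count over 100 and 8 with the replicate block. With the block or with only the 2 populations, 1 regulator was called for control Treg cells against male wannabes, Egln3; only the 2 populations left 1 for rescued Treg cells against male wannabes, Vhl. DESeq2 called 1 regulator, Arnt, for activated against resting wannabes and 3, with Vhl added, for control Treg cells against male wannabes. For the difference of changes DESeq2 called 775 genes against 233, and 7 list genes against 3, with 5 under a mean count over 100 and 5 with offsets. Egln2 turned in sign near 0 (0.033 for rescued against control with a mean count over 100, -0.0078 for the difference of changes with offsets). The causes were not tested. Replicate numbers did not pair the libraries (correlations of same-numbered deviations -0.027 to 0.084 in males and -0.029 to -0.017 in females). The replicate block changed no other call of a regulator, but ended those of the list genes Pfkfb4, Siah1b, Crebbp, Ankrd37 and Hilpda in the females and of Pkm, Ahr and Cited2 in rescued Treg cells against wannabes.

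Leaving out each library in turn gave, in the order rescued against control, control against wannabe, rescued against wannabe, activated against resting and the difference, 114 to 598, 1549 to 2423, 1570 to 1959, 751 to 3216 and 44 to 430 genes. The regulators called were 1 to 1, 0 to 2, 0 to 3, 0 to 0 and 0 to 1, and the list genes 0 to 9, 18 to 29, 12 to 18, 10 to 46 and 1 to 8. Signs of small changes turned for Egln1 (-0.32 to 0.21 for rescued against control, -0.51 to 0.036 for the difference), Egln2 (-0.090 to 0.085, -0.79 to 0.055 and -0.81 to 0.028 in the male comparisons), and Hif1a (-0.041 to 0.080), Vhl (-0.16 to 0.032) and Egln3 (-0.21 to 0.13) in the females. Where a male wannabe or activated library was left out, the lone one was assumed to vary like the other groups. Depth limits Epas1 in control Treg cells, which rests on 9 to 34 reads.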
